A study of Mus musculus with 11 samples.

Results

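The genes described here encode the proteins of the cytosolic ribosome. They were taken as every gene whose symbol in the platform annotation, for probes with 1 symbol, is Rpl or Rps followed by a number, or Rplp0, Rplp1, Rplp2 or Rpsa, leaving out the Rps6k kinases and pseudogenes. The rule used names only, and it gave 73 of 7114 named genes, 47 of the large subunit and 26 of the small, measured by 167 probes. Of these genes, 49 had several probes, up to 7, and 24 had 1. RefSeq lists 89 protein-coding mouse symbols that meet the rule, and 73 of them were measured.

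RNA of 11 mouse samples was hybridised on 2-colour cDNA arrays, 1 array each, to ask what RAS isoforms can do in melanocytes, per the series title. RAS proteins are small GTPases that carry growth signals to the MAP kinase pathway. The arrays were labelled D6_MEL, NRAS_MEL, HRAS_MEL and Melan A (read as melanocyte lines), 3T3 and VA_MEF (read as fibroblast lines), Heart, Kidney, Liver and Lung (organs), and VA_475, whose cell type the labels do not give. In the descriptions NRAS_MEL carries the code of D6_MEL with Nras added, and HRAS_MEL carries a code of its own. Strain, age, sex, the RAS alleles and how they were introduced were not given in the sources used here. Each label has 1 array, so the values of an array carry no replicate error.

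Every array's own RNA carried Cy3 and the common reference carried Cy5. A value below is the log2 ratio of own RNA over reference after the array was centred on its median, so 0 is the array's median probe and 1 is a ratio 2-fold above it. Neither the base of the logarithm nor the direction of the deposited ratio was given in the sources used here. The base was taken as 2, and the direction was taken as likely from organ marker genes, which are high in 1 tissue and low elsewhere. The sample titles, which name the sample before the reference, run against it. With the opposite direction, each signed value here would change sign. Arrays held values for 15170 to 15210 probes. Intensities were not used here, so how far a probe lay above background is unknown.

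Marker genes went against several labels, so these arrays are named by their labels. The 3 liver markers measured (Alb, Ttr and Apoa1) had a median of 2.54 in the Lung-labelled array against -5.25 in the Liver-labelled array. The lung marker Sftpd stood at 5.75 in the Liver-labelled array and -1.25 in the Lung-labelled array. The heart markers Fabp3 and Nppb had a median of 3.77 in the Melan A-labelled array and -0.96 in the Heart-labelled array. The 3 kidney markers were highest in Kidney, at 2.56. Of 13 melanocyte markers 4 were measured, and their median was -0.51 in D6_MEL, -0.56 in NRAS_MEL, -1.46 in HRAS_MEL, -0.73 in the Heart-labelled array and -1.20 in the Melan A-labelled array, with the highest, 0.71, in the VA_MEF-labelled array. The 4 did not share 1 pattern. Mlph stood at 2.36 to 3.18 in D6_MEL, NRAS_MEL, HRAS_MEL and the Heart-labelled array, 3.06 in the VA_MEF-labelled array and -0.06 in the Melan A-labelled array. Rab38 was at 0.06, 0.04 and -0.99 in D6_MEL, NRAS_MEL and HRAS_MEL and highest in the VA_MEF-labelled array, at 3.40. Kit (-1.93 to -1.09) and Ednrb (-2.98 to -2.41) were low in these 3 arrays and highest in the Liver-labelled array, at 0.41 and 0.36. Of 11 fibroblast markers 8 were measured, with a median of -0.57 in 3T3 and -2.25 in the VA_MEF-labelled array.

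Each cytosolic ribosome carries 1 small subunit, which reads the messenger RNA, and 1 large subunit, which joins amino acids and passes the chain out through an exit tunnel. Most subunit proteins are needed in equal number, so their genes are usually expressed together. Their messenger RNAs begin with a run of pyrimidines, the 5′ terminal oligopyrimidine or TOP motif, through which mTOR signalling controls their translation, and growth signals including RAS and Myc raise ribosome production. A few members have a paralog expressed mainly in some tissues, such as Rpl39l in the testis.

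The start sites of genes on which the results below turn are shown to let the pyrimidine run be compared between them. The sequences are RefSeq promoter windows on GRCm38.p6, from 40 bases before the start to 20 after it, 5′ to 3′ on the gene's strand, with the letters in capitals where CTTTC (part of the pyrimidine run), CCGGAAG (the GABP or ETS motif) or AAGATGG (the YY1 motif) matched on either strand. CTTTC and CTTCCGG, the second motif read on the other strand, can overlap. The first 4 genes have CTTTC at the start, the next 5 have no match in the window, and Rpl39l is shown for its value in VA_475. The Rpl39l window starts from a site 31 bases from the annotated gene end, and the other 9 from the end itself.
Rps27 (chr3:90213629-90213688, minus strand): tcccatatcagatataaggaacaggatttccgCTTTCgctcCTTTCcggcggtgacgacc
Rps26 (chr10:128626487-128626546, minus strand): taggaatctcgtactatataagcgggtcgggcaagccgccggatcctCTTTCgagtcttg
Rplp2 (chr7:141447611-141447670, plus strand): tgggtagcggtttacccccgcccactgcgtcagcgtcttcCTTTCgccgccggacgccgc
Rpl15 (chr14:18270967-18271026, minus strand): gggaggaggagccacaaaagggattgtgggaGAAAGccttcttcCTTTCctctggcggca
Rpl22l1 (chr3:28805468-28805527, plus strand): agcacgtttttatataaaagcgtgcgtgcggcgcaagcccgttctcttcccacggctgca
Rpsa (chr9:120127726-120127785, plus strand): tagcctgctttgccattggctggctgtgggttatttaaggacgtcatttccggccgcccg
Rpl10a (chr17:28328431-28328490, plus strand): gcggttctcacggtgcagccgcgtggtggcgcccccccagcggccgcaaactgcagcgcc
Rpl39 (chrX:37085203-37085262, minus strand): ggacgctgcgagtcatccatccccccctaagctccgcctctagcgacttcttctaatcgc
Rpl36a (chrX:134585614-134585673, plus strand): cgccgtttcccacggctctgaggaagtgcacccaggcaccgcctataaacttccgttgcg
Rpl39l (chr16:10170188-10170247, plus strand): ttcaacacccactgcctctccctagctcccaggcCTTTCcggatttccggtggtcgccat

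RefSeq promoter windows of 300 bases, 250 before and 50 after the start, were matched for 59 of the 73 genes, which had 70 windows. In the 25 bases from 10 before the start to 15 after it, CTTTC on the gene's strand was in 14 of the 70 windows (20%), against 3.10% of all 32851 windows of the table. Over 300 bases and both strands, CTTTC was in 81.4% of the members' windows and 57.3% of all, CCGGAAG in 38.6% and 8.86%, and AAGATGG in 17.1% and 6.34%. A match is a description of letters and not of a bound site, and a window without one says only that these letters are not in it.

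Relative to the embryo reference, the ribosomal protein genes stood higher as a group than all genes in VA_475 and most arrays labelled as lines, and lower in Kidney and the Lung-labelled array. Their median was highest in VA_475, at 0.45, followed by the VA_MEF-labelled array at 0.40 and NRAS_MEL at 0.38. 3T3 at 0.25 and HRAS_MEL at 0.18 came next. The Liver-labelled array at 0.03, D6_MEL at 0.01 and the Heart-labelled array at 0.00 lay near the arrays' middle. The Melan A-labelled array at -0.28, Kidney at -0.54 and the Lung-labelled array at -0.56 lay lowest. The medians of all genes lay between -0.09 and -0.03, so the ribosomal protein genes ranged on both sides of the other genes. Fewer cells of a type and less RNA per cell cannot be told apart in such samples.

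No replicate array gives an error for these medians, so the order was not resolved where they lie close together, as in VA_475, the VA_MEF-labelled array and NRAS_MEL, or in Kidney and the Lung-labelled array. Within an array the members spread with an SD of 0.37 to 0.47, except 0.73 in VA_475, while all genes spread with an SD of 0.77 to 1.04. Probes of the same member differed with a median SD of 0.16, against 0.27 for the 1810 genes with several probes.

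**Figure D1:**
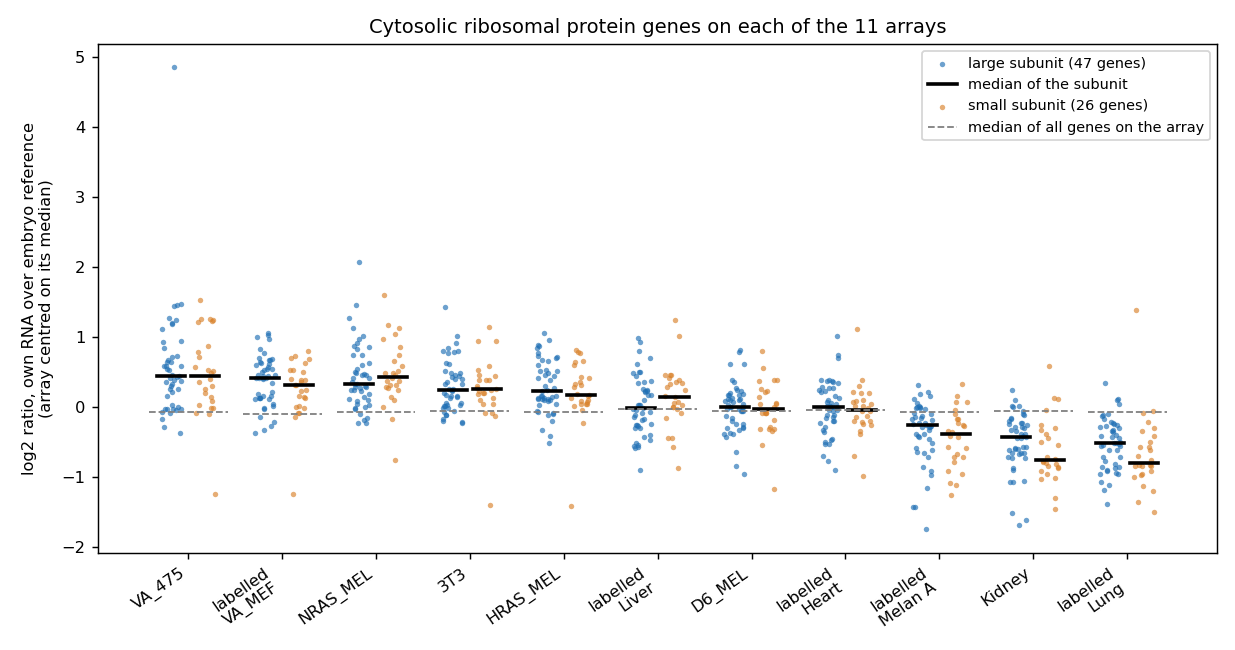
Log2 ratio of own RNA over embryo reference (y axis) of each ribosomal protein gene on each of the 11 arrays (x axis), ordered by the members' median. Points are genes (large subunit blue, small subunit orange), black bars the median of each subunit and dashed lines the median of all genes on the array; the medians of both subunits lie above the dashed line on the left and below it in the 3 arrays on the right, and the single point at 4.85 in VA_475 is Rpl39l.

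The 5 arrays with the highest medians also had the most members above 0, in another order. Above 0 lay 63 of 73 members in NRAS_MEL, 61 in HRAS_MEL and the VA_MEF-labelled array, 59 in 3T3 and 58 in VA_475. In D6_MEL 38 lay above 0, in the Heart-labelled array 37 and in the Liver-labelled array 41. Few did so in the Melan A-labelled array (12 of 72), Kidney (7 of 73) and the Lung-labelled array (5 of 73). Of all genes, 44.7% to 47.9% lay above 0 on an array. Over the 72 members with a value on every array, Kidney and the Lung-labelled array were both below all 9 others for 31, against 6.81% of all genes.

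Single genes differed in which array held their extreme. VA_475 was the highest of the 11 arrays for 24 members (10.6% of all genes), the VA_MEF-labelled array for 19 (11.7%) and NRAS_MEL for 19 (6.10%). The lowest was the Lung-labelled array for 28 (12.6%), Kidney for 20 (8.93%) and the Melan A-labelled array for 14 (13.5%). No member was lowest in NRAS_MEL, HRAS_MEL, 3T3, VA_475 or the VA_MEF-labelled array. The share of all genes lowest in these arrays is not given here, so how unusual this is cannot be said. The map of genes and arrays shows the same division gene by gene.

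**Figure D2:**
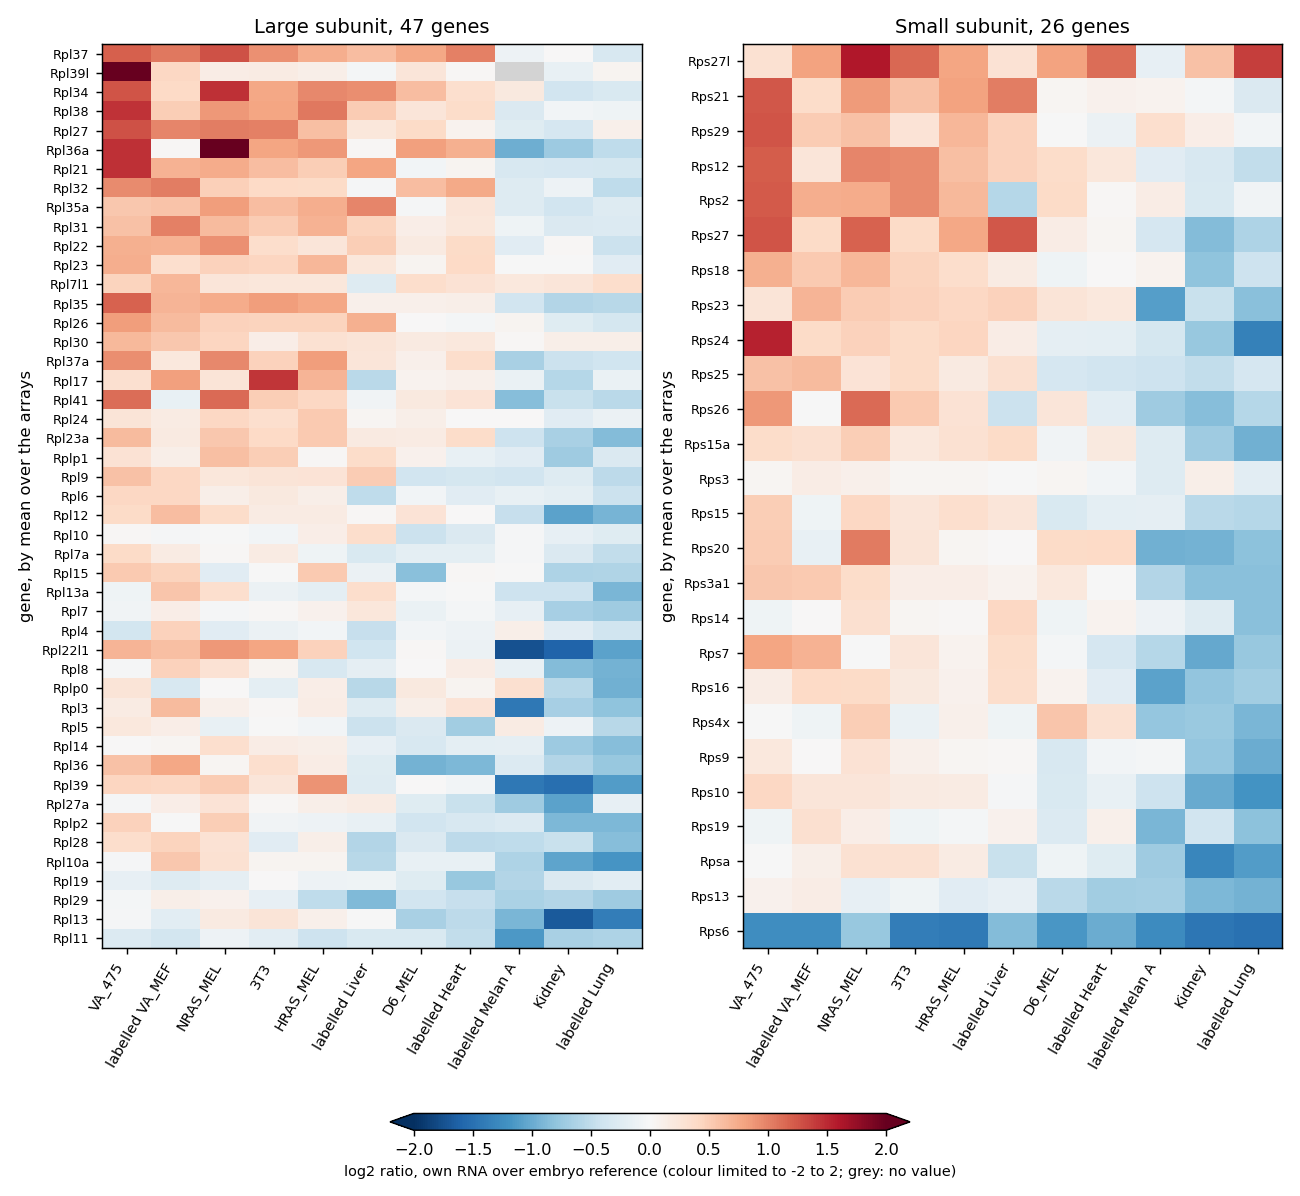
Log2 ratio of own RNA over embryo reference (colour, limited to -2 to 2, grey where there is no value) for the 47 large-subunit genes (left) and 26 small-subunit genes (right), with genes ordered by their mean and arrays by the members' median. Most rows turn from red on the left to blue on the right; Rps6 is blue throughout, Rps3 is pale throughout, and Rps27l is red in all arrays but the one labelled Melan A.

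The medians of the large and small subunit lay close together on most arrays. On the 8 arrays other than Kidney and the arrays labelled Liver and Lung, the large-subunit median minus the small-subunit median lay between -0.10 and 0.12. In Kidney the large-subunit median was -0.42 and the small-subunit median -0.75, a gap of 0.33, and in the Lung-labelled array they were -0.51 and -0.79, a gap of 0.28. In the Liver-labelled array the order was the other way, with -0.01 for the large and 0.15 for the small subunit. Each gap comes from 1 array, and with 1 probe per gene the gap in Kidney was 0.17.

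The 3 proteins of the stalk, the flexible arm of the large subunit that recruits translation factors, did not share 1 pattern. Rplp0, its base, stood at 0.20 in D6_MEL, 0.00 in NRAS_MEL, 0.14 in HRAS_MEL, -0.19 in 3T3, -0.32 in the VA_MEF-labelled array, 0.26 in VA_475, 0.06 in the Heart-labelled array, 0.31 in the Melan A-labelled array, -0.56 in Kidney and in the Liver-labelled array, and -0.96 in the Lung-labelled array. It was lowest in the 3 organ arrays. Rplp1 stood at 0.08 in D6_MEL, 0.60 in NRAS_MEL, 0.03 in HRAS_MEL, 0.49 in 3T3, 0.12 in the VA_MEF-labelled array, 0.30 in VA_475, -0.15 in the Heart-labelled array, -0.23 in the Melan A-labelled array, -0.71 in Kidney, 0.37 in the Liver-labelled array and -0.28 in the Lung-labelled array. Rplp2 stood at -0.38 in D6_MEL, 0.49 in NRAS_MEL, -0.10 in HRAS_MEL, -0.07 in 3T3, -0.01 in the VA_MEF-labelled array, 0.46 in VA_475, -0.32 in the Heart-labelled array, -0.28 in the Melan A-labelled array, -0.90 in Kidney, -0.14 in the Liver-labelled array and -0.90 in the Lung-labelled array. Both acidic partners were higher in NRAS_MEL than in D6_MEL, while Rplp0 was not.

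The members with the smallest SD over the arrays were Rps3 (0.13), Rpl30 (0.19), Rpl10 (0.21) and Rpl7l1 (0.22), against a median of 0.48 over members and also over all genes. Rps3, which lines the channel where the messenger RNA enters, ranged from -0.26 in the Melan A-labelled array to 0.15 in the VA_MEF-labelled array, with a median of 0.04. Rpl10, which joins the large subunit late in its assembly, ranged from -0.42 in D6_MEL to 0.36 in the Liver-labelled array, with a median of -0.03. Rpl30 ranged from 0.02 in the Melan A-labelled array to 0.64 in VA_475, with a median of 0.21. The small SD of Rpl30 is that of the mean of 2 probes that differed in sign on several arrays. The first stood at 1.14 in the VA_MEF-labelled array, -0.22 in Kidney and -0.23 in the Lung-labelled array, and the second at -0.06, 0.44 and 0.47. The 2 Rps3 probes also parted in the Melan A-labelled array, at -1.0 and 0.48. For Rpl7l1 the small SD is likewise that of the mean of 3 probes that differed, at 0.87, 0.96 and 0.17 in the VA_MEF-labelled array.

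The genes with the largest SD were Rpl39l (1.51), Rpl22l1 (0.96), Rpl36a (0.94) and Rpl39 (0.82). Among them are 2 of the 4 paralog copies. Rpl39l, a copy of Rpl39 found mainly in the male germ line, stood at 4.85 in VA_475, on 1 probe, and its ratio was rank 1 of the 7086 genes on that array. On the 9 other arrays with a value it lay between -0.15 and 0.42, and it had no value on the Melan A-labelled array. Rpl39 itself, which lines the exit tunnel, stood at 0.43 in VA_475, so parent and copy parted on that array.

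Rpl22l1, a copy of the RNA-binding protein Rpl22, varied more than its parent. It stood at 0.03 in D6_MEL, 0.87 in NRAS_MEL, 0.47 in HRAS_MEL, 0.79 in 3T3, 0.61 in the VA_MEF-labelled array, 0.67 in VA_475, -0.11 in the Heart-labelled array, -1.74 in the Melan A-labelled array, -1.60 in Kidney, -0.40 in the Liver-labelled array and -1.07 in the Lung-labelled array. Its 2 probes followed each other, with 0.81 and 0.77 in 3T3 and -1.70 and -1.51 in Kidney. Rpl22 stood at 0.02 in Kidney, 0.49 in the Liver-labelled array and -0.43 in the Lung-labelled array, and at 0.18 to 0.92 in the 5 lines.

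The other copies had patterns of their own. Rps27l, a p53-induced copy of Rps27, stood at 1.60 in NRAS_MEL, 1.38 in the Lung-labelled array, 1.14 in 3T3 and 1.11 in the Heart-labelled array. Its other values were 0.81 in the VA_MEF-labelled array, 0.80 in D6_MEL, 0.78 in HRAS_MEL, 0.58 in Kidney, 0.30 in VA_475, 0.29 in the Liver-labelled array and -0.17 in the Melan A-labelled array. Rps27, a zinc finger protein of the small subunit, stood at 1.26 in VA_475, 1.25 in the Liver-labelled array, 1.18 in NRAS_MEL, 0.77 in HRAS_MEL, 0.39 in 3T3 and in the VA_MEF-labelled array, 0.14 in D6_MEL, 0.04 in the Heart-labelled array, -0.34 in the Melan A-labelled array, -0.61 in the Lung-labelled array and -0.87 in Kidney. Copy and parent were thus near opposite ends of their ranges in the Lung-labelled array and in the Liver-labelled array. Rpl7l1, a copy of Rpl7, ranged from -0.25 in the Liver-labelled array to 0.67 in the VA_MEF-labelled array by the mean of 3 probes. The probes differed, with 0.87, 0.96 and 0.17 in the VA_MEF-labelled array and 0.00, -0.04 and 0.76 in NRAS_MEL.

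Rps6, the small-subunit protein phosphorylated by S6 kinases downstream of mTOR and MAP kinase signalling, was measured by 4 probes that disagreed. Of these, 1 probe read between -6.79 and -3.45 on every array, while the other 3 read between -1.15 and 1.30. The mean over all 4, from -1.49 in the Lung-labelled array to -0.75 in NRAS_MEL, therefore rests on that probe. The mean of the other 3 was 0.62 in VA_475, 0.58 in NRAS_MEL, 0.47 in D6_MEL, 0.32 in the Heart-labelled array, 0.20 in the VA_MEF-labelled array, 0.19 in 3T3, 0.02 in the Liver-labelled array, 0.01 in HRAS_MEL, -0.52 in the Melan A-labelled array, -0.55 in the Lung-labelled array and -0.65 in Kidney. Without the low probe Rps6 thus lay below 0 in the same 3 arrays as the group's median.

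**Figure D3:**
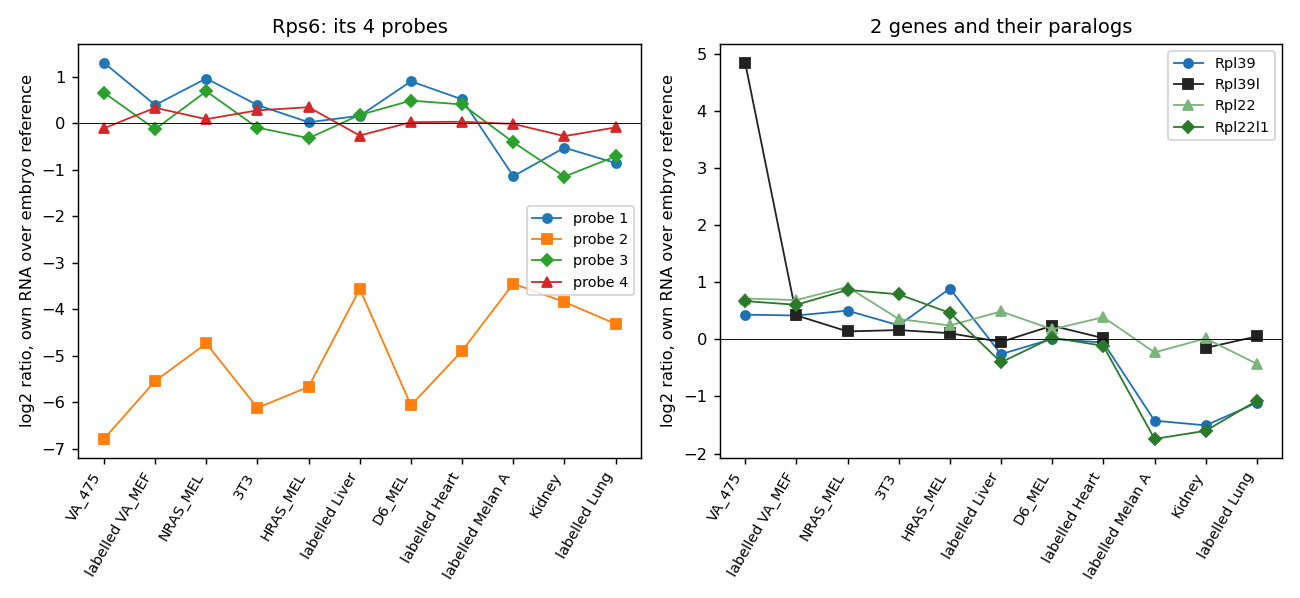
Log2 ratio of own RNA over embryo reference (y axis) on each of the 11 arrays (x axis), ordered by the members' median, for the 4 probes of Rps6 (left) and for Rpl39, Rpl22 and their copies Rpl39l and Rpl22l1 (right); lines only join the values of 1 probe or gene. Probe 2 of Rps6 lies between -6.79 and -3.45 while the others lie between -1.15 and 1.30. Rpl39l stands at 4.85 in VA_475 alone, and Rpl22l1 falls below Rpl22 in Kidney, where it is at -1.60.

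The first comparison implied by the title is the RAS-named melanocyte arrays against D6_MEL, 1 array a side and without a test. In NRAS_MEL the ribosomal protein genes were higher than in D6_MEL by a median of 0.49, while all genes had a median of 0.02. Of the 73 members, 66 were higher and 7 lower, or 90.4% higher against 51.6% of all genes (48.4% lower). At least 1.5-fold higher were 29, against 11.2% of all genes, and none was 1.5-fold lower (13.0% of all genes). The shift took in both subunits, with 41 of 47 large-subunit genes higher (median 0.48) and 25 of 26 small-subunit genes (median 0.56).

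The shift was spread over many genes and few were far apart. At least 2-fold higher in NRAS_MEL were 2 members, against 2.46% of all genes, and none was 2-fold lower (4.40% of all genes). Rpl36a, encoded on the X chromosome, stood at 2.07 in NRAS_MEL and 0.82 in D6_MEL, 2.38-fold apart, on 1 probe. Rps27, also on 1 probe, stood at 1.18 and 0.14, 2.05-fold apart. Rpl36, with a difference of 0.99, Rpl41, the shortest ribosomal protein, with 0.93, and Rps26, which lies where the messenger RNA leaves the small subunit, with 0.89, followed. Over the 49 members with several probes, the differences of probes of 1 member had a median SD of 0.15. That is a spread between probes and not an error of the arrays, and Rpl36a, Rps27 and Rpl36 had 1 probe each.

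A few members were lower in NRAS_MEL than in D6_MEL, all by less than 1.5-fold. Rplp0 had the lowest difference, -0.20, followed by Rpl4, which forms part of the exit tunnel wall, at -0.17. Rpl32 stood at 0.47 in NRAS_MEL and 0.61 in D6_MEL, a difference of -0.14. The copies Rpl7l1 at -0.11 and Rpl39l at -0.10 were next. These differences are near the median spread between probes of 1 member. The 3 Rpl7l1 probes differed in direction, with 0.00, -0.04 and 0.76 in NRAS_MEL against 0.46, 0.57 and 0.04 in D6_MEL.

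HRAS_MEL stood above D6_MEL by less, with a median difference of 0.24 against -0.01 over all genes. Here 56 members were higher and 17 lower, or 76.7% higher against 48.9% of all genes (51.1% lower). At least 1.5-fold higher were 16, against 13.1% of all genes, and none was 1.5-fold lower (15.1% of all genes). The medians were 0.23 for the large subunit and 0.24 for the small.

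At least 2-fold higher in HRAS_MEL were 2 members, against 5.23% of all genes, and none was 2-fold lower (5.91%). Rpl15, a core protein of the large subunit, stood at 0.52 in HRAS_MEL and -0.84 in D6_MEL, 2.56-fold apart, but its 3 probes disagreed. The first read 1.32 in HRAS_MEL and -2.71 in D6_MEL, and the others read 0.26 and -0.02 in HRAS_MEL against 0.10 in D6_MEL. Rpl36, on 1 probe, stood at 0.15 in HRAS_MEL and -0.95 in D6_MEL, 2.14-fold apart. Rpl39 with a difference of 0.88 and Rpl38, known for its part in the translation of Hox messenger RNAs, with 0.82 followed.

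Other members were lower in HRAS_MEL than in D6_MEL. Rps4x, encoded on the X chromosome, stood at 0.10 against 0.56, a difference of -0.46, and lay at 0.49 in NRAS_MEL. Rps20 stood at 0.04 against 0.38, a difference of -0.34, and at 1.04 in NRAS_MEL. Rpl8 stood at -0.33 against 0.01, a difference of -0.34. For Rps20 the 2 RAS-named arrays thus lay on opposite sides of D6_MEL. For Rpl8 they did so only by the mean of 2 probes that parted. The first Rpl8 probe read -0.42 in HRAS_MEL, -0.25 in D6_MEL and 0.31 in NRAS_MEL, and the second -0.23, 0.27 and 0.25.

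Both comparisons use the single D6_MEL array, whose own values enter both differences, and it was lowest of the 5 lines for 48 of 73 members (17.7% of all genes). With the Heart-labelled array in its place, the array whose marker genes lay near those of D6_MEL, the median differences were 0.49 for NRAS_MEL and 0.32 for HRAS_MEL. D6_MEL and that array differed by a median of -0.01 over the members. The lowest of these differences, -0.86 for Rpl15, rests on the probe named above, which had no value in the Heart-labelled array.

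**Figure D4:**
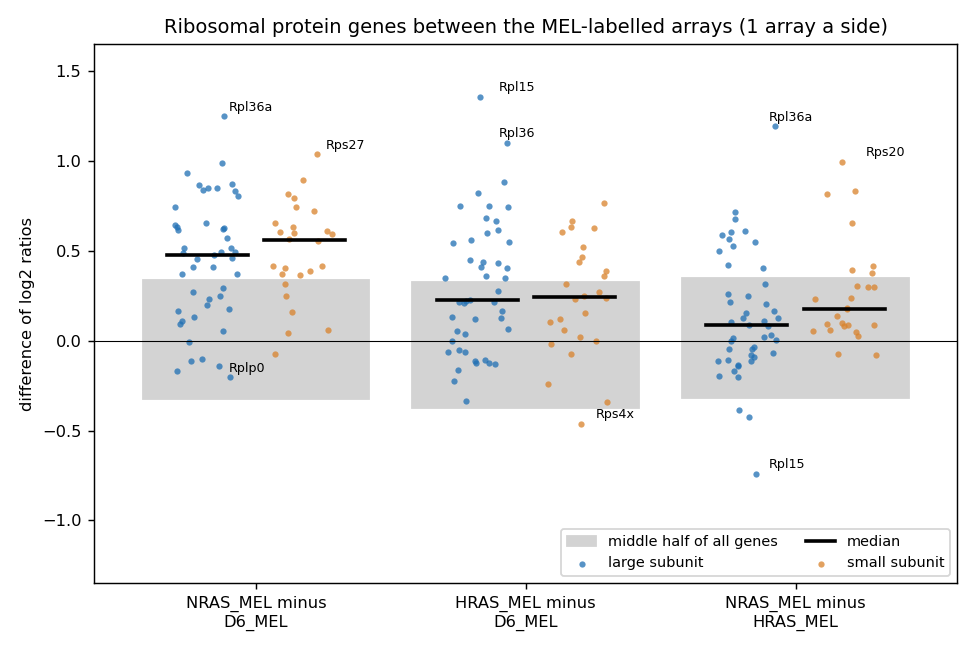
Difference of log2 ratios between the 3 MEL-labelled arrays (y axis) for each large-subunit gene (blue) and small-subunit gene (orange), with black bars for the median of each subunit and grey boxes for the interquartile range of all genes. The members' medians lie above 0 in all 3 comparisons, and in NRAS_MEL minus D6_MEL both subunit medians, 0.48 and 0.56, lie above the grey box.

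Set against each other, NRAS_MEL lay above HRAS_MEL by a median of 0.11, against 0.02 over all genes. Of the members 54 were higher and 19 lower, or 74.0% higher against 51.5% of all genes (48.5% lower). In the small subunit 24 of 26 were higher (median 0.18) and in the large subunit 30 of 47 (median 0.09). At least 1.5-fold apart were 10 higher (13.4% of all genes) and 1 lower (13.1%), and 2-fold higher was 1 (4.27%), Rpl36a, with none 2-fold lower (5.08%).

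Rpl36a stood at 2.07 in NRAS_MEL and 0.87 in HRAS_MEL, a difference of 1.19. Rps20 at 0.99, Rps26 at 0.84 and Rps27l at 0.81 were the next differences upward. On the other side lay Rpl15 at -0.74, through its 1 discordant probe, Rpl17 at -0.42, Rpl39 at -0.39 and Rpl23 at -0.20. Rpl17, which lies at the mouth of the exit tunnel, had 2 probes, 1 of which read 0.28 in NRAS_MEL and 0.29 in HRAS_MEL and the other 0.22 and 1.06.

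The cultured lines were then compared with the organs, the 1 comparison with several arrays a side. It set 5 lines (D6_MEL, NRAS_MEL, HRAS_MEL, 3T3 and the VA_MEF-labelled array) against 3 organs (Kidney and the arrays labelled Liver and Lung). The arrays labelled Heart and Melan A were left out because their markers go against their class. Different lines and organs stand in for replicates, so a p-value measures the spread between them. The fit treated the 5 lines as independent, although NRAS_MEL carries the description code of D6_MEL. If these lines are related, the p-values may be too small. The members were higher in the lines by a median of 0.61, or 1.52-fold (interquartile range 0.39 to 0.79), against -0.03 over all genes. The difference was above 0 for 72 of 73 members, against 47.8% of all genes, and below 0 for 1 (52.2% of all genes), Rpl10, at -0.06. Both subunits took part, with medians of 0.57 for the large and 0.66 for the small.

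By limma with Benjamini-Hochberg adjustment over the 7089 genes tested, 5 of 73 members rose (2.84% of all genes) and 0 fell (3.70%), at an adjusted p threshold of 0.05. Unadjusted p-values under 0.05 were found for 37 members, all higher in the lines (11.5% of all genes), and 0 lower (15.8%). The members that rose were Rpl22l1, Rps2, Rpsa, Rpl10a and Rpl39. Of these, Rps2 and Rpl10a were named after their values were seen.

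Rpl22l1, whose values are given above, rose by 1.58 ± 0.31 (SE; adjusted p = 0.022 by limma), from -1.03 ± 0.60 (SD, n = 3) in the organs to 0.55 ± 0.33 (SD, n = 5) in the lines. Rpl39 stood at 0.01 in D6_MEL, 0.50 in NRAS_MEL, 0.89 in HRAS_MEL, 0.25 in 3T3, 0.42 in the VA_MEF-labelled array, -1.51 in Kidney, -0.26 in the Liver-labelled array and -1.11 in the Lung-labelled array. It rose by 1.37 ± 0.31 (SE; adjusted p = 0.037 by limma). The lines and organs did not overlap for either gene, and in both the Liver-labelled array lay closest to the lines.

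Rpsa is a small-subunit protein that also serves as a laminin receptor. On its first probe lines and organs overlapped, at -0.17 in D6_MEL and -0.16 in the Liver-labelled array. By the mean of its probes Rpsa had the same order as Rpl22l1 and Rpl39. It stood at -0.08 in D6_MEL, 0.31 in NRAS_MEL and 3T3, 0.17 in HRAS_MEL, 0.12 in the VA_MEF-labelled array, -1.30 in Kidney, -0.44 in the Liver-labelled array and -1.12 in the Lung-labelled array, and rose by 1.12 ± 0.23 (SE; adjusted p = 0.027 by limma). Rpl10a, part of the stalk through which spent transfer RNA leaves, stood at -0.16 in D6_MEL, 0.30 in NRAS_MEL, 0.05 in HRAS_MEL, 0.06 in 3T3, 0.54 in the VA_MEF-labelled array, -1.05 in Kidney, -0.56 in the Liver-labelled array and -1.18 in the Lung-labelled array, and rose by 1.09 ± 0.23 (SE; adjusted p = 0.029 by limma).

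Rps2, which lies where the messenger RNA enters the small subunit, differed from these in that the Liver-labelled array was the lowest. It stood at 0.38 in D6_MEL, 0.75 in NRAS_MEL, 0.65 in HRAS_MEL, 0.95 in 3T3, 0.73 in the VA_MEF-labelled array, -0.30 in Kidney, -0.56 in the Liver-labelled array and -0.08 in the Lung-labelled array, and rose by 1.01 ± 0.20 (SE; adjusted p = 0.026 by limma). Rps26, with a difference of 1.05 ± 0.27 (SE; adjusted p = 0.054 by limma), and Rpl36a, with 1.32 ± 0.41 (SE; adjusted p = 0.084 by limma), did not pass. Rpl36a spread widely among the lines, from 0.02 in the VA_MEF-labelled array to 2.07 in NRAS_MEL.

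Some members had no difference beyond its error. Besides Rpl10, at -0.06 ± 0.22 (SE), these included Rpl19, which forms a bridge between the subunits, at 0.04 ± 0.17, and Rps3, at 0.11 ± 0.17. Rps6 was at 0.08 ± 0.23 with its low probe and at 0.68 without it. In 21 members, 17 large and 4 small, all 5 lines lay above all 3 organs, against 8.89% of all genes, and in 0 did all lines lie below (10.2%). By the mean of their probes, Rplp0, Rpl4, Rpl32, Rpl17 and Rps26 were among the 21. In Rplp0, Rpl4 and Rpl17, and in Rpsa, which was also among the 21, at least 1 probe overlapped between lines and organs. The first Rpl17 probe stood at 0.20 in the Liver-labelled array against 0.01 in 3T3, -0.15 in the VA_MEF-labelled array and -0.26 in D6_MEL, while the second, at 2.85 in 3T3, did not overlap.

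The call count depended on single arrays more than the median did. By limma, 0 members passed without 3T3, NRAS_MEL or Kidney in turn, 1 without the Lung-labelled array and 2 without HRAS_MEL. Calls over all genes fell too, from 201 higher to 60 without 3T3, 87 without NRAS_MEL, 53 without Kidney, 74 without the Lung-labelled array and 143 without HRAS_MEL. Without the Liver-labelled array 29 passed, where 385 of all genes did (5.44%), and the median was 0.85. With the arrays labelled Heart and Melan A added under their labels, 0 of all 7100 genes passed by limma and so 0 members. The members' median was then 0.41.

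The Liver-labelled array stood apart from the other organs in these genes. It was above both Kidney and the Lung-labelled array for 60 of 73 members, against 39.3% of all genes. It lay above Kidney by a median of 0.67 (62 of 73 members higher, against 52.6% of all genes) and above the Lung-labelled array by 0.66 (65 of 73, against 52.7%). Kidney and the Lung-labelled array differed by a median of 0.04. Rps27 had the largest gap on both sides, at 1.25 in the Liver-labelled array against -0.87 and -0.61.

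Genes of 3 related lists were set beside the members. Of all genes, 2.84% were called higher in lines minus organs and 3.70% lower, and the count of each list stands against these shares. Of 16 other translation genes with TOP messenger RNAs 15 were measured, and they had a median of 0.53 in lines minus organs, with 3 called higher and 0 lower by limma. Eef1b2, a subunit of an elongation factor, rose by 1.15 ± 0.24 (SE; adjusted p = 0.026 by limma) and Hnrnpa1, an RNA-binding protein, by 1.67 ± 0.37 (SE; adjusted p = 0.032 by limma). Eif3e, a subunit of an initiation factor named after its value was seen, rose by 1.06 ± 0.22 (SE; adjusted p = 0.027 by limma), and Nap1l1, with 1.08 ± 0.29 (SE; adjusted p = 0.057 by limma), did not pass. Among the melanocyte arrays this list stayed near 0, at 0.00 in NRAS_MEL minus D6_MEL and 0.04 in HRAS_MEL minus D6_MEL, where the members stood at 0.49 and 0.24.

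Of 63 ribosome biogenesis genes 50 were measured, with a median of 0.54 in lines minus organs, 2 called higher and 0 lower, against 2.84% higher and 3.70% lower of all genes. Nop2, an enzyme that methylates ribosomal RNA, rose by 2.42 ± 0.34 (SE; adjusted p = 0.0068 by limma), and Myc, a transcription factor that drives ribosome production, by 1.75 ± 0.41 (SE; adjusted p = 0.043 by limma). Their median was 0.14 in NRAS_MEL minus D6_MEL and -0.33 in HRAS_MEL minus D6_MEL. In HRAS_MEL the biogenesis genes thus stood lower than in D6_MEL by median and the ribosomal protein genes higher.

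Markers of division and of blood moved with lines against organs. Of 31 proliferation genes 27 were measured, with a median of 1.38 in lines minus organs, 17 called higher and 0 lower, against 2.84% and 3.70% of all genes. Their array medians lay between -0.51 and 0.32 in the 5 lines and between -1.77 and -1.36 in the 3 organs. Of 5 globin genes Hbb-b1 was measured, and it lay between -8.73 and -7.62 in the lines, at -2.30 in Kidney, 0.24 in the Liver-labelled array and -3.65 in the Lung-labelled array. In NRAS_MEL minus D6_MEL, 1 array a side, the proliferation genes had a median of -0.38 and the members 0.49. The part of dividing cells and of blood in the members' difference between lines and organs was not tested.

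Fau, which encodes a small-subunit protein fused to a ubiquitin-like one and carries no Rps symbol, was the 1 gene measured of 4 such symbols. It stood at 0.43 in NRAS_MEL, 0.36 in 3T3 and VA_475, 0.35 in the Liver-labelled array and 0.21 in HRAS_MEL. It stood at -0.07 in the VA_MEF-labelled array, -0.08 in D6_MEL, -0.14 in the Heart-labelled array, -0.19 in the Lung-labelled array, -0.25 in Kidney and -0.77 in the Melan A-labelled array. Its difference was 0.52 in NRAS_MEL minus D6_MEL and 0.29 in HRAS_MEL minus D6_MEL, near the members' medians.

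The letters at the start site were then set beside the differences. The 13 members with CTTTC in the 25 bases at the start had a median of 0.63 in lines minus organs, and the 46 matched members without it 0.62. The medians were 0.57 and 0.47 in NRAS_MEL minus D6_MEL, and 0.36 and 0.24 in HRAS_MEL minus D6_MEL. Of the 5 genes called in lines minus organs, the windows of Rpl22l1, Rpsa, Rpl10a and Rpl39 printed above hold none of the 3 motifs. The window of Rps2, which is not printed, holds none either. The same was found for members with no difference beyond its error, such as Rpl10 and Rps3. A window without a match therefore does not set the called genes apart. In NRAS_MEL minus D6_MEL the 13 members with CTTTC ran from -0.10 in Rpl39l to 1.04 in Rps27. Rps26 at 0.89 and Rplp2 at 0.87 were the next highest of the 13. The 46 without it ran from -0.20 in Rplp0 to 1.25 in Rpl36a, whose window holds no match.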

How the data were processed

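The authors deposited 1 log ratio of both channels per probe and array, taken here as log2. Background correction, normalization and software were not given in the sources used here. Per the labels' protocols, RNA was extracted with Trizol and dye-labelled by direct incorporation during reverse transcription. The deposited array medians lay between -0.03 and 0.03. The sign was turned, array medians were set to 0, and probes of the same gene were averaged. Of 15247 probes, 9600 had 1 symbol in the platform annotation, 214 several and 5433 were not named there. Probes with several symbols were left out, 9 of which include a member. RefSeq held the gene number of 162 of the 167 member probes and changed 0 symbols.

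The fit of lines and organs used lmFit and eBayes of limma 3.58.1 (R 4.3.3), with Benjamini-Hochberg adjustment over all genes at a threshold of 0.05, on genes with 3 values in the lines and 2 in the organs; the code was tested on simulated data. Single arrays were compared as differences with no test, counted at 2-fold and 1.5-fold. Tables were handled in Python 3.11.15 with pandas 2.3.3. The arrays hold no replicates, and their number limits the precision. The arrays labelled Heart and Melan A and VA_475 entered no test. Alternatives covered probe summary, centring, quantile normalization, the limma prior, the value filter, the paralog copies, the arrays included and the fold.

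The members, the related lists and the left-out arrays were chosen with earlier results of these data known. Genes named are the stalk genes and Rpsa, the paralog copies, the 4 highest and 4 lowest in each comparison and in SD over arrays, genes whose probes differ by a mean SD above 1, and in the related lists the 3 with the largest difference.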

Additional observations from a re-analysis of the deposited data

Results flagged for a closer look

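Of 90 groups of values of the named genes looked at, 3 held an array far from the others, and chance flags about 1 in 20 groups. Rps3 stood at -0.26 in the Melan A-labelled array, and the nearest of the 3 other melanocyte-labelled arrays was at 0.04; the markers of that array go against its label. The 2 Rps3 probes stood at -1.0 and 0.48 there, so -0.26 is the mean of probes that differ in sign. Rpl4 stood at 0.46 in the VA_MEF-labelled array, and the nearest of the 4 other lines was at -0.06. Rpl7l1 stood at 0.67 in the same array, and the nearest of the other lines was at 0.36. Of its 3 probes, 2 read 0.87 and 0.96 there. The third read 0.17, below 0.76 in NRAS_MEL and 0.47 in HRAS_MEL.

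Rpl39l stood at 4.85 in VA_475, an array the labels put in no group and no comparison used, while the highest of the 9 other arrays with a value was at 0.42. It was read by 1 probe.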

How the results depend on the processing

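No paired analysis was possible because each label has 1 array. Of 302 recomputed values, 243 were labelled the same as the main value, 43 weaker, 10 stronger, 3 moved and 3 reversed. The label of the same did not require the same sign where the main value was small. With 1 probe per gene the members' median in D6_MEL went from 0.0096 to -0.0044. With the median over the probes of a gene, the large-subunit median minus the small-subunit median in HRAS_MEL went from 0.053 to -0.032. The members' median difference kept its sign under every alternative run, at 0.43 to 0.56 in NRAS_MEL minus D6_MEL, 0.22 to 0.32 in HRAS_MEL minus D6_MEL and 0.07 to 0.16 in NRAS_MEL minus HRAS_MEL. With the arrays labelled Heart and Melan A added, lines minus organs gave 0 of all 7100 genes called by limma, and so 0 members. The members' median was then 0.41. Leaving out each array in turn gave 0 to 29 members called and medians of 0.51 to 0.85. The other alternatives called 4 to 7 members; with 1 probe per gene Rps2 and Rpsa did not pass (adjusted p = 0.075 for both by limma). Quantile normalization moved the calls over all genes from 201 higher and 262 lower to 231 and 231. The gap between subunits in Kidney was 0.17 with 1 probe per gene. It kept its sign on 6 arrays under every setting, above 0 on 4 and below 0 on 2. Rps6 in lines minus organs turned to -0.027 without NRAS_MEL, to -0.0058 without Kidney and to -0.028 without the Lung-labelled array, reached 0.28 without the Liver-labelled array, and stood at 0.68 without its low probe. Members 2-fold higher numbered 1 to 6 in NRAS_MEL minus D6_MEL, 1 to 3 in HRAS_MEL minus D6_MEL and 1 to 3 in NRAS_MEL minus HRAS_MEL. All 5 lines lay above all organs for 62 members without the Liver-labelled array. With the arrays labelled Heart and Melan A added, all lines lay above all organs for 3. The share of all genes was not counted in these settings, and fewer arrays make such a separation easier for any gene. The counts are therefore not read as a result about the members. The causes were not tested. Signal over background is unknown here, so which ratios it limits cannot be said.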
